A study of Mus musculus with 65 samples.

Results

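Retinas of mice 21 days into microglial repopulation (REPOP21, n = 4) were compared with retinas of control diet mice (CD, n = 5), which make up 9 of the 65 mice and 2 of the 16 groups of the series. The CD mice are replicates 1 to 4 and a mouse labelled 2M, a tag that the mice repopulated for 2 months also carry. Members were chosen by the sample description alone, and each mouse is a replicate. All 9 mice were adult C57BL/6J, and whole retinal homogenate was sequenced. CD mice carry the treatment label vehicle and ate the control diet, and REPOP21 mice had been fed PLX5622 until their retinal microglia were depleted and were then returned to control diet for 21 days. Retinas repopulated for 14 days (REPOP14, n = 4) and retinas after 14 days on PLX5622 (DEP14, n = 4) were used as neighbouring groups. The comparison asks how far the transcriptome of a retina refilled with microglia differs from one that kept its resident microglia. Microglia from these mice were not isolated, and in whole retina fewer cells of a type and less RNA per cell cannot be told apart.

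Microglia are the resident macrophages of the retina and depend on CSF1R, the receptor for CSF1 and IL-34. PLX5622 inhibits this receptor, and microglia return once the drug is withdrawn. Settled microglia are recognised by a homeostatic gene set that includes Tmem119, P2ry12, Cx3cr1 and Sall1, whereas macrophages of vessels and borders, and activated phagocytes, carry more Lyz2, MHC class II or Cybb RNA.

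The reads counted per gene summed to between 7468474 and 8530865 in the CD mice and between 7944370 and 8137613 in 3 REPOP21 mice. The remaining REPOP21 library, replicate 1, held 5106429, the lowest total of the series, so that a level of 3 counts corresponds to 0.574 CPM (the count scaled to the library's TMM-normalized total, per the usual unit of sequencing depth) there and to between 0.352 and 0.396 CPM in CD. The sample titles end in RE or in re, in mixed order over groups, with 3 RE mice in each group, 2 re mice in CD and 1 re mouse, the shallow one, in REPOP21. The suffix is not explained by the labels. It split the 9 mice on the first principal component (66.6% of the variance over 12346 genes), and it was therefore a term in the main fits. Among the RE mice this component also parted the groups, at -2.67 to 14.1 in CD and 19.4 to 28.9 in REPOP21. A suffix term does not remove that part. Retinal identity was plain in all mice, with Nrl, the rod transcription factor, at 778 CPM or more. Within each suffix, REPOP21 libraries also held relatively fewer reads of GC-rich genes. The log2 ratio of reads in genes above the upper to those below the lower quartile of GC content was -0.44 to -0.37 in REPOP21 RE mice and -0.24 to -0.20 in CD RE mice, and it was 0.23 in the REPOP21 re mouse and 0.32 to 0.33 in the CD re mice.

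In edgeR's quasi-likelihood test, 8 of 23739 genes were DEGs (false discovery rate, FDR, below 0.01 with at least a doubling or halving, that is 1 on the log2 scale), all of them lower in REPOP21, or 0.0337% of the genes tested. No gene was a DEG in the other direction (0%), although 1824 genes were higher at an unadjusted p under 0.05 and edgeR's likelihood ratio test called 5. DESeq2 called none higher and 4 lower. The 8 DEGs were mt-Ts1, a mitochondrial tRNA gene for serine, and 7 predicted genes, Gm28437, Gm10222, Gm28438, Gm28439, Gm29216, Gm13340 and Gm10925. None is a microglial gene. All 7 predicted genes are annotated as unprocessed pseudogenes, and each is a nuclear copy of a protein-coding gene of the mitochondrial genome. Nuclear copies of this kind arise when mitochondrial DNA is inserted into a chromosome, and their reads are hard to separate from those of the mitochondrial genes. Of them, 6 lie together on the minus strand of chromosome 1 between bases 24611535 and 24616197 (GRCm38), and Gm13340 lies on chromosome 2 at 22588103 to 22589647.

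The copies on chromosome 1 were identical or nearly identical to their mitochondrial originals. Gm28437 matched mt-Co3 (cytochrome c oxidase subunit), Gm10222 matched mt-Nd4l, Gm28439 matched mt-Nd4 (both complex I subunits) and Gm10925 matched mt-Atp6 (ATP synthase subunit) at 100% identity over their whole transcripts of 783, 294, 876 and 678 bases. Gm28438 differed from mt-Nd3 at 1 of 345 aligned bases and Gm29216 from mt-Co1 at 1 of 483. Gm13340 was the most diverged, with 37 differences from mt-Co1 over 1545 bases (97.6% identity). Reads were 50 bases long. Every 50-base window of Gm28437, Gm10222, Gm28439 and Gm10925 also occurred in a mitochondrial gene, as did 293 of 296 windows of Gm28438, 430 of 443 of Gm29216 and 411 of 1496 of Gm13340. The stretches that follow show how little separates copy and original, with a differing base in capitals. All are from GENCODE M21 transcripts on GRCm38.
Gm28438, chr1:24613060-24613119, minus strand: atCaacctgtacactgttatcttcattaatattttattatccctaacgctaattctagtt
mt-Nd3, chrM:9459-9518, plus strand: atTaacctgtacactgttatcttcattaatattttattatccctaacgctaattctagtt
Gm29216, chr1:24616129-24616188, minus strand: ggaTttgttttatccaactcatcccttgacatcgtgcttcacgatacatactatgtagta
mt-Co1, chrM:6390-6449, plus strand: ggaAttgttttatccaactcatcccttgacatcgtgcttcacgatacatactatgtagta
Gm28437, chr1:24613613-24613672, minus strand: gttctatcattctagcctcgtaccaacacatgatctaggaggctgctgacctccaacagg
mt-Co3, chrM:8906-8965, plus strand: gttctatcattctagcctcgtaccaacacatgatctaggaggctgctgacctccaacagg

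The tRNA gene mt-Ts1 lies on the minus strand at chrM:6870-6938 and meets the end of mt-Co1 on the other strand, the 3 shared bases being in capitals.
mt-Ts1: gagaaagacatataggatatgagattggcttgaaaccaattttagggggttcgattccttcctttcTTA
Whether strand was used in the counting is not given in the sources used here, so reads of mt-Ts1 and of the transcript on the opposite strand may have been mixed.

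Gm28437 had the smallest FDR. Its level was 76.2, 92.0 and 88.0 CPM in the CD RE mice and 7.10 and 10.6 CPM in the CD re mice, against 31.2, 32.8 and 36.4 CPM in the REPOP21 RE mice and 5.17 CPM in the REPOP21 re mouse. Over all mice this was 54.8 ± 42.4 CPM in CD and 26.4 ± 14.3 CPM in REPOP21 (mean ± SD, n = 5 and 4), a log2 fold change of -1.32 ± 0.10 (SE) at an FDR of 1.6e-06 by edgeR's quasi-likelihood test. The groups overlapped only across suffixes, since the re mice of both groups sat far below every RE mouse.

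Gm28438, the copy of mt-Nd3, had the largest fold change of the 8. It stood at 12.2, 25.7 and 34.1 CPM in CD RE mice and at 4.29, 6.28 and 3.76 CPM in REPOP21 RE mice, with 0.645 and 1.19 CPM in CD re and 0.383 CPM in REPOP21 re. The log2 fold change was -2.32 ± 0.28 (edgeR FDR 0.000382). For Gm10222 it was -1.91 ± 0.19 (FDR 6.41e-05), for Gm28439 -1.57 ± 0.19 (FDR 0.000382), for Gm10925 -1.33 ± 0.20 (FDR 0.00531), for Gm29216 -1.09 ± 0.14 (FDR 0.00111) and for Gm13340 -1.02 ± 0.14 (FDR 0.00176). In mt-Ts1 the RE mice held 26.3, 34.5 and 30.4 CPM in CD and 9.97, 10.8 and 15.8 CPM in REPOP21, and the re mice held 3.36 and 4.75 CPM in CD and 1.72 CPM in REPOP21. Its log2 fold change was -1.32 ± 0.14 (FDR 0.000147). In all 8 genes every REPOP21 mouse lay below every CD mouse of the same suffix, in Gm10925 with nearly equal levels in the shallow REPOP21 mouse and the lower CD re mouse (12.3 CPM in both).

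**Figure D1:**
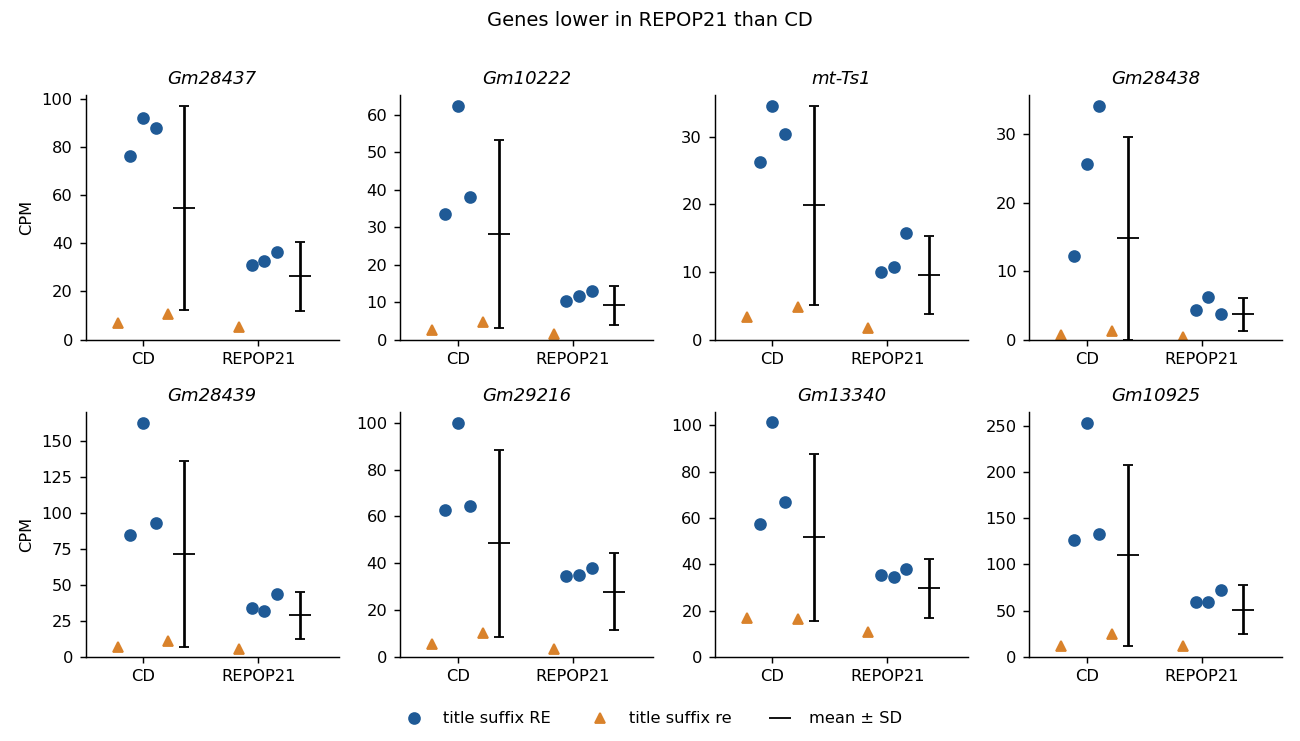
Level in CPM (vertical axes, each from 0) of the 8 genes called lower in REPOP21, by group (horizontal axes), with 1 point per mouse (circles, RE titles; triangles, re titles) and mean ± SD in black. Within each suffix the REPOP21 points lie below the CD points, and the re mice of both groups lie below the RE mice.

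The calls depended on which mice were in the fit. Without the shallow library 18 genes were called lower and 1 higher (Gm15921), and the 18 included all 8. Without the other REPOP21 mice the count was 1 without replicate 2, 0 without replicate 3 and 2 without replicate 4, and without single CD mice it ranged from 1 (without replicate 4) to 9 (without replicate 1). With the RE mice alone only Gm28437 was called, and a replicate block, in which the unpaired CD 2M mouse has no weight, left 5 genes called, 4 of the 8 and Gm1821. The log2 fold change was negative for all 8 genes in each of these fits.

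The deposited FPKM values did not show the difference. Gm28437 was at 3435, 3593 and 3888 FPKM in CD RE mice and at 3940, 3844 and 3927 FPKM in REPOP21 RE mice. These values almost equalled those of its original, mt-Co3, which ran from 2330 to 3886 FPKM in CD and from 2448 to 3937 FPKM in REPOP21. The counts treated both genes otherwise, with 55 to 749 counts for Gm28437 and 19 to 125 counts for mt-Co3 in the CD mice. The difference of log2(FPKM + 0.1) between REPOP21 and CD, fitted by limma with the suffix, was 0.08 ± 0.16 for Gm28437 and lay between -0.04 and 0.10 for the 8 genes, and none passed. Which of the 2 sets of values follows the RNA was not tested.

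**Figure D2:**
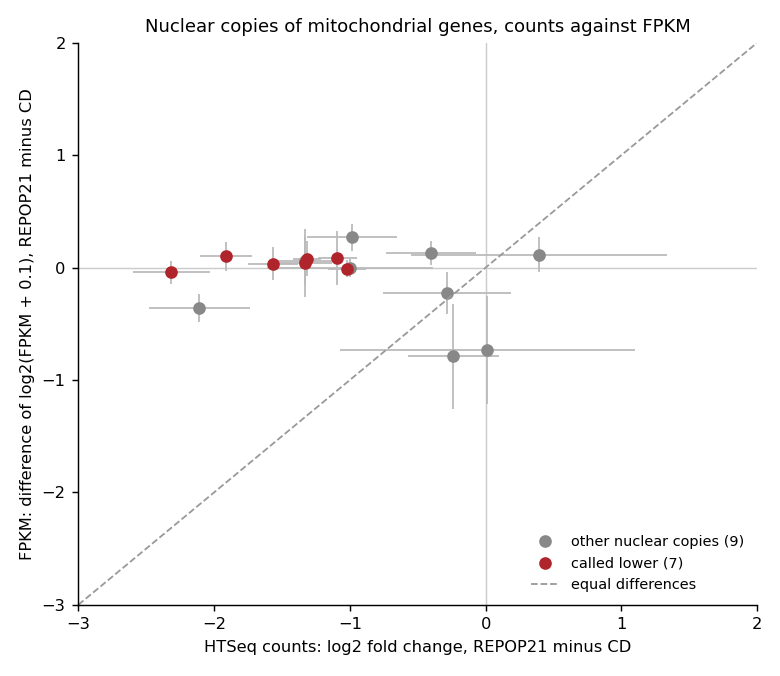
Difference between REPOP21 and CD for the 16 nuclear copies of mitochondrial genes, in the HTSeq counts (horizontal, log2 fold change by edgeR) and in the FPKM values (vertical, log2(FPKM + 0.1) by limma); bars are standard errors and the dashed line marks equal differences. The 7 called copies (red) lie from -2.32 to -1.02 on the horizontal axis and near 0 on the vertical axis.

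A search of all counted genes found 16 nuclear genes that shared at least 100 bases at 90% identity or more with a mitochondrial gene. All 16 were tested, 7 were called and 10 were lower at an unadjusted p under 0.05 (background 9.45% of all genes), with a median log2 fold change of -1.06, against 0.00173 over all genes. The 10 and the median include the 7 called copies and so partly restate those calls. Apart from the 7, only Gm28661, Gm4076 and Gm13339 were lower at that level. Gm28661, identical to mt-Co2 over its 681 bases, missed the threshold (-1.33 ± 0.22, edgeR FDR 0.0164), as did Gm13339, a partial copy of mt-Nd2 (-2.11 ± 0.37, FDR 0.0305). Of the 32 tested genes of the mitochondrial genome itself, 12 were lower and 4 higher at an unadjusted p under 0.05, with a median log2 fold change of -0.17. The mitochondrial protein genes closest to a call were mt-Co3 (-1.31 ± 0.22, FDR 0.0197) and mt-Atp6 (-1.34 ± 0.24, FDR 0.0325). The share of all counts on the mitochondrial genome was 4.61% to 5.01% in CD RE mice and 4.33% to 4.42% in REPOP21 RE mice, whereas the REPOP21 re mouse, at 3.37%, lay between the CD re mice, at 3.09% and 3.50%. With the mitochondrial genes and their copies left out, an alternative chosen after the data were seen, no gene was called at all, and 4034 genes had an unadjusted p under 0.05.

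The summed level of the 8 genes also varied widely among libraries of other groups. It was 480, 832 and 548 CPM in CD RE mice and 220, 222 and 261 CPM in REPOP21 RE mice. Among all 39 RE libraries of the series the CD mice ranked 26, 39 and 33 from the lowest and the REPOP21 mice 6, 7 and 15. Among the 26 re libraries the CD mice, at 55.2 and 83.1 CPM, ranked 9 and 26, and the REPOP21 mouse, at 40.8 CPM, was the lowest. Against REPOP14, Gm28437 differed by -0.37 ± 0.25 on the log2 scale (edgeR FDR 0.660) and against DEP14 by -0.70 ± 0.25 (FDR 0.869).

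**Figure D3:**
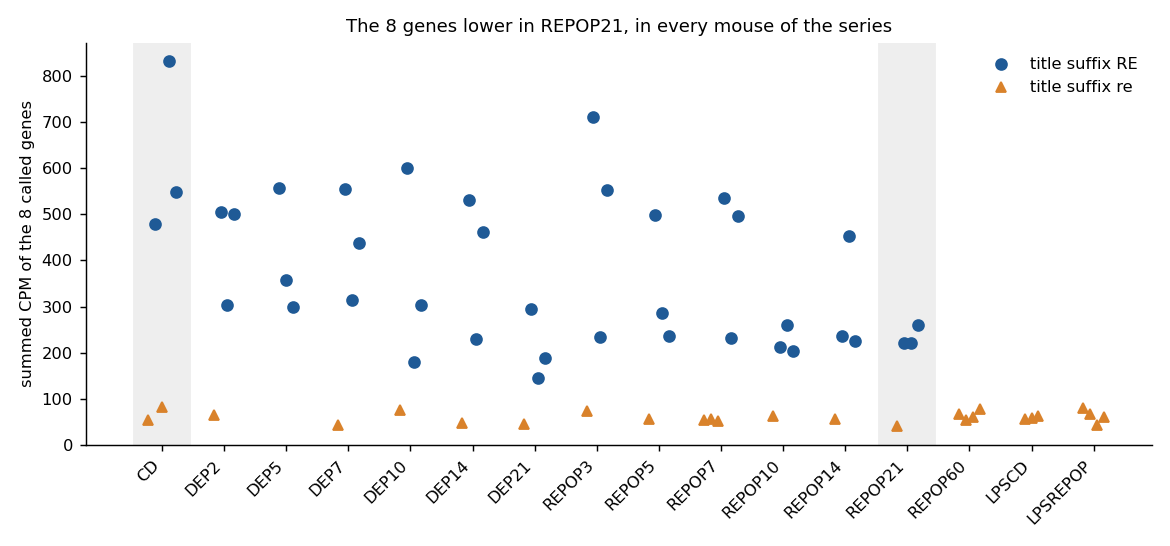
Summed CPM (vertical axis, from 0) of the 8 genes called lower in REPOP21, for each of the 65 mice by group (horizontal axis), with CD and REPOP21 shaded; circles are RE and triangles re titles. The 3 REPOP21 RE mice (220 to 261 CPM) lie low and the 3 CD RE mice (480 to 832 CPM) high among RE mice, and every re mouse lies below every RE mouse.

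Of 151 genes in 8 lists of microglial, macrophage and phagocyte genes, 140 were tested and none was a DEG. At an unadjusted p under 0.05, 16 were lower (11.4%, background 9.45%) and 13 were higher (9.29%, background 7.68%), shares close to those of all genes. At an FDR under 0.05 only Cybb passed, upward, and it met the detection filter through the REPOP21 mice alone. Of all genes, 0.19% passed upward and 0.459% downward. Without the shallow library the counts were 20 lower and 13 higher, and in the RE mice alone 19 and 13. The lower count was 8 without CD replicate 4 and 9 without REPOP21 replicate 2, with DESeq2 and with filterByExpr, and the higher count was 8 without REPOP21 replicate 4 and 6 with filterByExpr. 

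The homeostatic list had the lowest median of the 8 lists. Of 24 tested members, 18 had a negative log2 fold change (49.7% of all genes did), 8 were lower (33.3%, background 9.45%) and 1 higher (4.17%, background 7.68%) at an unadjusted p under 0.05, and the median log2 fold change was -0.36. The mean of log2(CPM + 1) over the list was 2.38 ± 0.06 in CD and 2.20 ± 0.05 in REPOP21, without overlap between the groups, and 1.80 in DEP14. Tmem119, a transmembrane protein typical of settled microglia, was at 1.81, 1.43, 1.81, 1.29 and 1.85 CPM in CD and at 1.15, 0.505, 1.03 and 0.878 CPM in REPOP21. The groups did not overlap (1.05% of all genes were below CD without overlap), and the log2 fold change was -0.84 ± 0.31 (edgeR FDR 0.174). P2ry12, the ADP receptor of microglial processes, fell short of separating the groups, with 0.924 to 2.97 CPM in CD, 0.383 to 1.54 CPM in REPOP21 and a log2 fold change of -0.96 ± 0.35 (FDR 0.168). Cx3cr1, the fractalkine receptor, was at 1.93 to 6.93 CPM in CD and at 1.64 to 3.14 CPM in REPOP21 (-0.87 ± 0.32, FDR 0.173).

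Selplg, a ligand of selectins, lay at 2.26 to 3.9996 CPM in CD and 0.770 to 2.26 CPM in REPOP21, ranges that met without crossing, with a log2 fold change of -0.94 ± 0.30 (FDR 0.121). Slc2a5, a fructose transporter, rested on 16 counts in 5 CD mice and 2 counts in 4 REPOP21 mice, a ratio of summed counts of 0.173 with a 95% exact counting interval of 0.0193 to 0.736. Adgrg1, Gpr34 and Csf1r completed the 8 with log2 fold changes of -0.57, -0.96 and -0.37. On log2(FPKM + 0.1) the differences of these genes were 0.09 for Adgrg1, -0.03 for Gpr34 and -0.72 for Csf1r. The other members of the 8 had -0.86 (Tmem119), -0.93 (P2ry12), -0.62 (Cx3cr1), -1.07 (Selplg) and -0.58 (Slc2a5) there. Csf1r, the PLX5622 target, was at 17.1 ± 2.45 CPM in CD and 13.2 ± 2.62 CPM in REPOP21 (FDR 0.17). The 8 differed in what the depleted retina kept. In the counts of DEP14 Csf1r was at 8.85 CPM, Adgrg1 at 8.59 CPM (7.88 in REPOP21), and Slc2a5 had 3 counts, as against 2 in REPOP21. The deposited FPKM values differed for Csf1r, with 0 to 0.069 FPKM in DEP14, 1.30 to 1.81 in CD and 0.65 to 1.05 in REPOP21. Which set follows the RNA of Csf1r was not tested. Tmem119 and Cx3cr1 had no counts in DEP14, and P2ry12, Gpr34 and Selplg had at most 0.265 CPM. Sall1, a transcription factor of microglial identity, had -0.65 ± 0.33 (FDR 0.328). The exception of the list was Fcrls, an Fc receptor-like gene of microglia, at 0 to 0.387 CPM in CD and 0.502 to 0.898 CPM in REPOP21, without overlap (0.826% of all genes were above CD in this way), with a log2 fold change of 1.71 ± 0.55 (FDR 0.122).

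Among 45 pan-myeloid genes, all tested, 5 were lower (11.1%, background 9.45%) and 1 higher (2.22%, background 7.68%) at an unadjusted p under 0.05, and the median log2 fold change was -0.12. Laptm5, a lysosomal membrane protein of haematopoietic cells, was the clearest of the lower ones. It stood at 5.16, 3.69, 4.77, 5.40 and 3.83 CPM in CD and at 1.53, 1.77, 2.18 and 3.64 CPM in REPOP21, again without overlap, with a log2 fold change of -0.9999 ± 0.24 (edgeR FDR 0.0564). In the FPKM values the groups did overlap, with 1.96 to 2.97 FPKM in CD and 1.07 to 3.09 FPKM in REPOP21. Itgam, the integrin chain CD11b, had -1.09 ± 0.50 (FDR 0.277) and also counts among the complement genes, as the receptor for C3 fragments. Fcer1g (-0.95 ± 0.33, FDR 0.148), Nfam1 and Irf8, the last a transcription factor of the myeloid line, were the other lower members, at log2 fold changes of -1.10 for Nfam1 and -0.70 for Irf8. On log2(FPKM + 0.1) the differences were -0.65 for Laptm5, -0.33 for Itgam, 0.04 for Fcer1g, -0.06 for Nfam1 and -0.32 for Irf8. In the depleted DEP14 retinas Fcer1g, Nfam1 and Irf8 still had 21, 7 and 27 counts, against 24, 9 and 36 in REPOP21. Laptm5 had 10 against 68, and Itgam had none against 9. Mpeg1, the pore-forming perforin-2 of macrophages, was the higher one at 0.36 ± 0.16 (FDR 0.252), with 3.61 to 4.89 CPM in CD and 4.87 to 5.94 CPM in REPOP21. Trem2, a lipid-sensing receptor of microglia, differed by 0.03 ± 0.50 on the log2 scale (FDR 0.99).

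C1qa, C1qb and C1qc, which encode the chains of the complement starter C1q, differed by -0.61 ± 0.24 (FDR 0.188), -0.30 ± 0.23 (FDR 0.539) and -0.13 ± 0.26 (FDR 0.847). Of 14 genes of CSF1R signalling and microglial survival, 2 were lower (14.3%, background 9.45%) and none was higher (background 7.68%) at an unadjusted p under 0.05 (edgeR), the members being Csf1r and Irf8, and the median log2 fold change was -0.05.

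The genes above CD rested on few reads. Cybb, the catalytic subunit of the phagocyte NADPH oxidase, had the smallest p of all genes that were higher in REPOP21. It had 0, 2, 1, 0 and 0 counts in the CD mice and 6, 13, 7 and 6 counts in the REPOP21 mice, or 0.0733 ± 0.108 and 1.11 ± 0.39 CPM. Cybb therefore passed the detection filter only through the group in which it was high, and filterByExpr did not keep it. Every REPOP21 mouse, the shallow one included, lay above every CD mouse. The ratio of summed counts was 14.8 with a 95% exact counting interval of 4.62 to 75.3, and the fitted log2 fold change was 3.56 ± 0.66 (edgeR p = 1.31e-05, FDR 0.0259). The FDR was 0.0446 in the RE mice alone, 0.0194 without the shallow library and 0.4236 without the title suffix. It was 0.1002 with the replicate block and 0.00209 when all 16 groups were fitted together. With each of the other 8 mice left out in turn it was above 0.05, from 0.0532 without CD replicate 2M to 0.33 without CD replicate 4. The other 6 oxidase genes had unadjusted p-values of 0.05 or more, and the list median was 0.01.

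Of 7 tested MHC class II genes, 3 were higher at an unadjusted p under 0.05 (42.9%, background 7.68%) and none was lower, and the list median was 0.08. The other tested members did not rise with them. On the log2 scale H2-Ab1 differed by -0.34 ± 0.38 (1.20 CPM in CD, 0.985 in REPOP21) and H2-DMb1 by -0.25 ± 0.70. H2-DMa differed by 0.05 ± 0.345 and Ciita by 0.08 ± 0.35. Cd74, the invariant chain, was at 0.258, 0.238, 0.516, 0.822 and 0.132 CPM in CD and at 3.26, 0.883, 0.898 and 1.76 CPM in REPOP21, without overlap, with a log2 fold change of 2.05 ± 0.49 (edgeR FDR 0.0538). Its highest value came from the shallow library, and its FDR without that library was 0.184. H2-Aa, an alpha chain, was at 0 to 0.528 CPM in CD and 0.385 to 0.878 CPM in REPOP21 (1.73 ± 0.68, FDR 0.191). H2-Eb1, a beta chain, was at 0 to 0.516 CPM in CD and 0.257 to 1.003 CPM in REPOP21 (1.65 ± 0.60, FDR 0.166). These levels rest on 7 and 17 counts for H2-Aa and on 9 and 21 counts for H2-Eb1 over the 2 groups.

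Lyz2, the lysozyme of macrophages and monocytes, was at 0.516, 0.357, 1.68, 0.822 and 0.660 CPM in CD and at 3.26, 4.29, 2.57 and 1.003 CPM in REPOP21. The groups overlapped through 1 mouse on each side, and the log2 fold change was 1.73 ± 0.42 (edgeR FDR 0.0597). Of the 27 tested genes of activated or disease-associated microglia, 4 were higher (14.8%, background 7.68%) and 1 was lower (3.7%, background 9.45%) at an unadjusted p under 0.05. The higher ones were Lyz2, Cd52 (0.96 ± 0.42, FDR 0.25), Apoe, the lipid carrier that Müller glia also make (0.25 ± 0.07, FDR 0.105), and the cathepsin Ctsl (0.25 ± 0.09, FDR 0.152), and the lower one was the cathepsin Ctsd (-0.22 ± 0.07, FDR 0.134). Apoe, Ctsl and Ctsd kept much of their level in the depleted DEP14 retina, at 466, 74.6 and 112 CPM, against 432, 65.2 and 127 CPM in CD. Lyz2 and Cd52 had 6 counts each in DEP14, against 79 and 27 in REPOP21. The mean of log2(CPM + 1) over the list was 3.40 ± 0.04 in CD and 3.49 ± 0.02 in REPOP21, without overlap, and 3.38 ± 0.07 in DEP14.

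Of 17 tested genes of border-associated macrophages, Ms4a7, Siglec1 and Ednrb were higher (17.6%, background 7.68%) and Hpgd was lower (5.88%, background 9.45%) at an unadjusted p under 0.05, and the list median was 0.24. Ednrb and Hpgd kept their levels in the depleted retina. Ednrb was at 6.97 to 8.74 CPM in DEP14 and 4.90 to 8.68 in CD, and Hpgd at 8.23 to 11.9 and 6.19 to 13.3 CPM. Ms4a7 rested on 5 counts in CD and 17 in REPOP21 (1.86 ± 0.76, FDR 0.207), 11 of them in 1 mouse. Siglec1, sialoadhesin, had 1 count in CD and 6 in REPOP21, a ratio of 8.30 with an interval of 1.01 to 382. It passed the detection filter only through the REPOP21 mice, and the depleted DEP14 retinas also held 6 counts. Of this list, Cd163, Pf4, Cbr2, Clec12a and Cd209f did not pass the detection filter. In the list of monocyte, neutrophil and lymphocyte genes only 8 of 18 were tested, and its summed level was 3.48 to 8.25 CPM in CD and 3.26 to 4.23 CPM in REPOP21. Ccr1, a chemokine receptor of monocytes, had 0 counts in all CD mice and 0, 3, 1 and 3 counts in REPOP21 (edgeR FDR 0.126). Ccr1 too passed the filter only through the REPOP21 mice. S100a9, a neutrophil gene, was lower (-2.36 ± 0.86, FDR 0.168) through 1 CD mouse at 3.35 CPM.

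**Figure D4:**
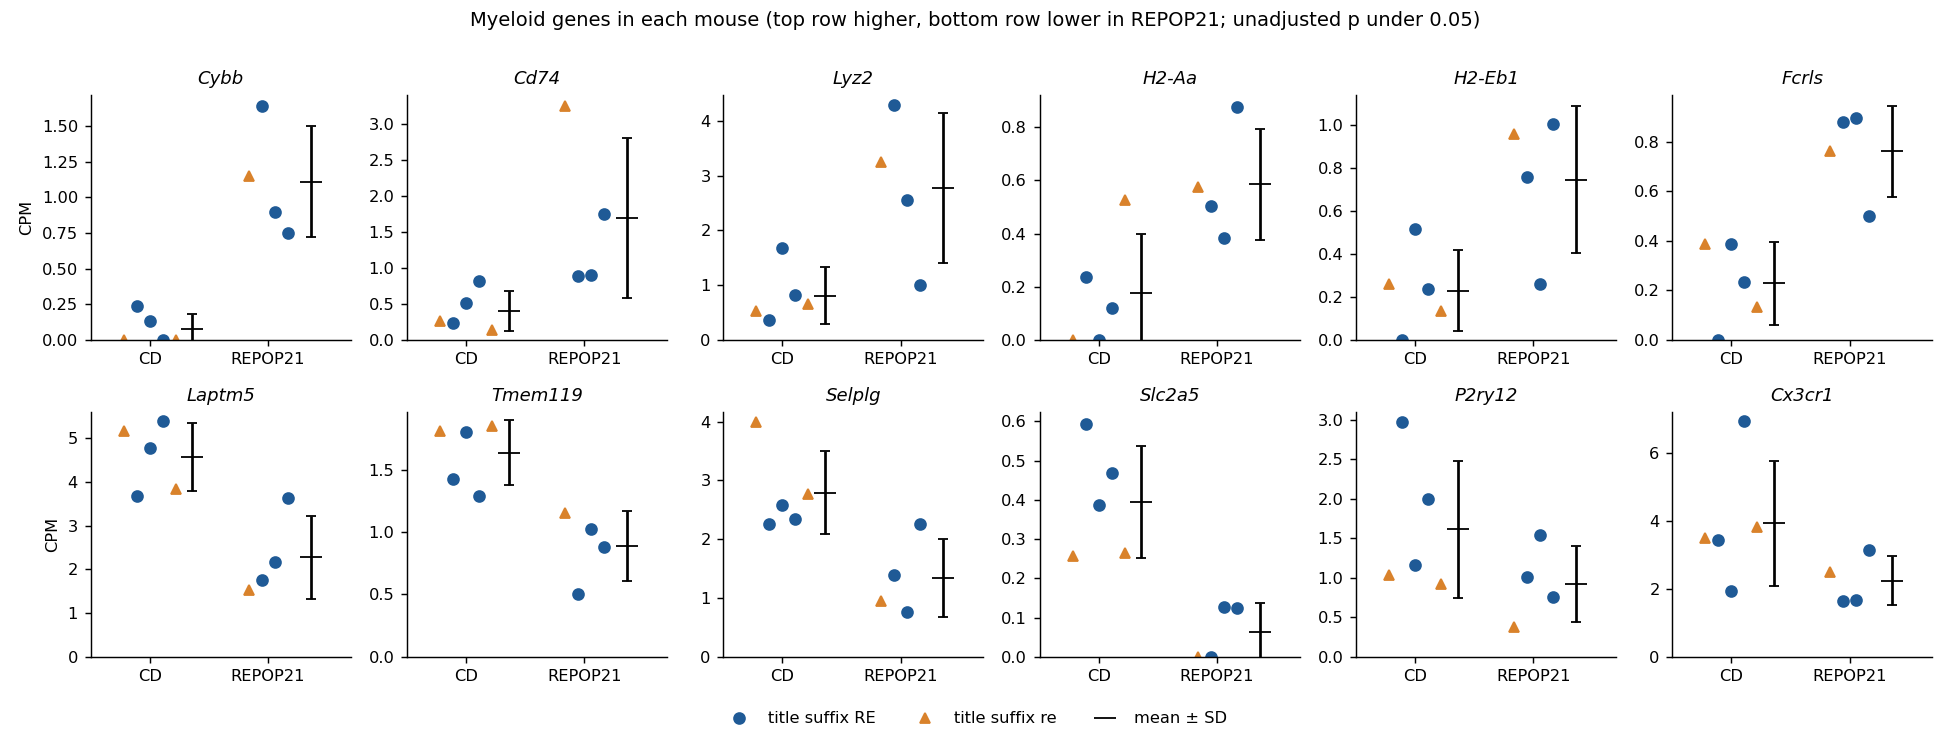
Level in CPM (vertical axes, from 0) of 6 myeloid genes higher (top) and 6 lower (bottom) in REPOP21 at an unadjusted p under 0.05, by group (horizontal axes), with 1 point per mouse (circles RE, triangles re) and mean ± SD. Cybb, Cd74 and Fcrls lie above CD in every REPOP21 mouse, and Laptm5, Tmem119, Selplg and Slc2a5 lie below it.

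**Figure D5:**
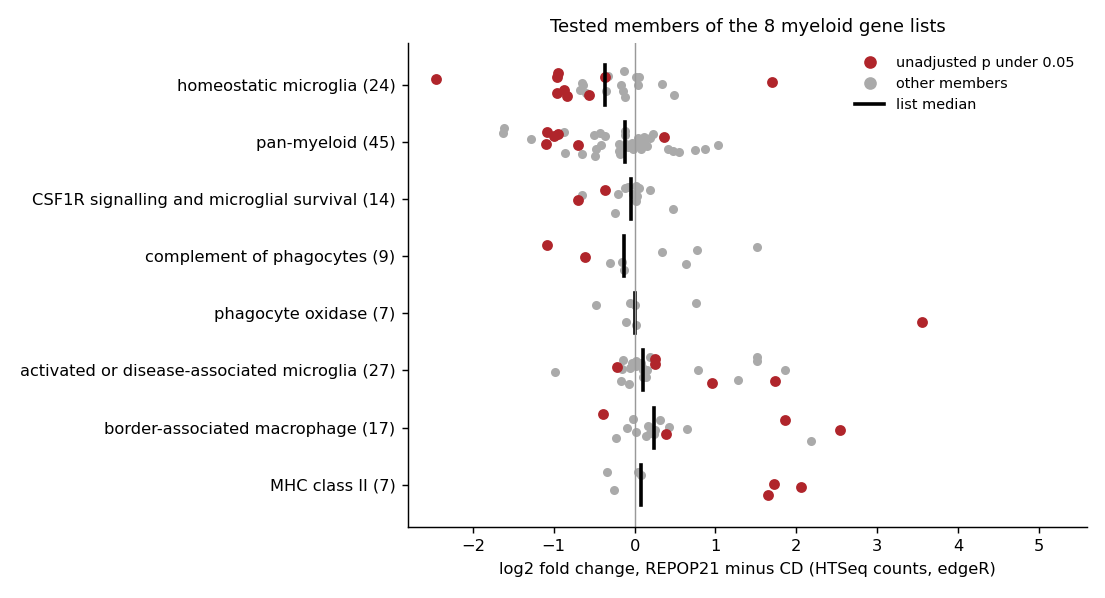
Log2 fold change between REPOP21 and CD (horizontal axis) of each tested member of the 8 myeloid lists (rows, with the number tested), in red where the unadjusted p was under 0.05; black bars are list medians. The homeostatic list has its median at -0.36 and 8 red points below 0, while the red points of the MHC class II and oxidase lists lie above 1.

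Promoters of 4 of these genes are shown because they carry letters known from myeloid gene control, GAGGAA, the core bound by the myeloid factor PU.1, and ATTGG, the Y box of MHC class II promoters, on either strand. Both are in capitals in the RefSeq sequences (GRCm38.p6, 250 bases before to 50 bases after the gene start, 5′ to 3′ on the gene's strand).
Cybb, chrX:9469275-9469574, minus strand: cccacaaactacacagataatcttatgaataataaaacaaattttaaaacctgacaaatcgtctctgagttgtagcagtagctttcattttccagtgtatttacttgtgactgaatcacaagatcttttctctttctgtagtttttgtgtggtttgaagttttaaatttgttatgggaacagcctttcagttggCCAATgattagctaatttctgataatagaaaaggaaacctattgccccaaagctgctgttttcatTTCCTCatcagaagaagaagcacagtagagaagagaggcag
H2-Aa, chr17:34287774-34288073, minus strand: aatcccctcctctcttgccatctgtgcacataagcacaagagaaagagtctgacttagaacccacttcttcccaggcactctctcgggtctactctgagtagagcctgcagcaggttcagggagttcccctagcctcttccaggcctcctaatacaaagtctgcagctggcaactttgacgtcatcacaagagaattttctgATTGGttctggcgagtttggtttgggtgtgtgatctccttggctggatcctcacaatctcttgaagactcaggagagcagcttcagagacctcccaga
H2-Eb1, chr17:34305617-34305916, plus strand: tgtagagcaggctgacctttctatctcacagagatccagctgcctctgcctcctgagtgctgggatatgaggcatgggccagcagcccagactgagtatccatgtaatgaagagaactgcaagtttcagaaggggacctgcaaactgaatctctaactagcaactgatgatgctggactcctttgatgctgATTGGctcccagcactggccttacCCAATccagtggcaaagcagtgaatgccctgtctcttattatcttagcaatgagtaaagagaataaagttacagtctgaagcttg
Laptm5, chr4:130913066-130913365, plus strand: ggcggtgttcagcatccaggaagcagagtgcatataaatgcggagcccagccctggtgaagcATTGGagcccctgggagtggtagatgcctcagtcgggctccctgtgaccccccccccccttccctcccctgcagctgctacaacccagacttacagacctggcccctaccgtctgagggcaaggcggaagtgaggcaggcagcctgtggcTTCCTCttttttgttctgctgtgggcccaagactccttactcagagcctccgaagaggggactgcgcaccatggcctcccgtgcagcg
The PU.1 core was in 47 of the 103 tested myeloid genes with a promoter in this table (45.6%) and in 26.9% of 14050 tested genes. It was in 4 of 10 promoters of the higher and 4 of 11 promoters of the lower myeloid genes. The Y box was in 35% of the myeloid promoters and 38% of all, and in 6 of 10 promoters of the higher and 4 of 11 promoters of the lower myeloid genes. These matches describe letters in the window only.

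Against DEP14, the depleted retina, the retina of REPOP21 mice again held myeloid transcripts. In the fit of these 2 groups 4 genes were DEGs, all higher (0.0164% of 24348 tested), namely the cathepsin gene Ctss and the 3 C1q genes. The 3 C1q genes passed the detection filter only through the REPOP21 mice, the group in which they were high. With any single mouse of either group left out only 1 or 2 genes were called higher (2 without REPOP21 replicate 4, otherwise 1), and 1 was called lower without DEP14 replicate 4. Ctss was at 5.17, 7.06, 8.21 and 7.53 CPM in REPOP21 and at 0, 0.25, 0 and 0.117 CPM in DEP14 (edgeR FDR 2.03e-07), and in CD it was at 6.99 ± 2.58 CPM against 6.99 ± 1.30 CPM in REPOP21. C1qb and C1qc had no counts in DEP14, and with 3 counts over the group as a floor they were at least 28.5-fold and 30.7-fold higher in REPOP21. Of 44 pan-myeloid genes tested there, 24 were higher than in DEP14 at an unadjusted p under 0.05 (background 1.93%) and none was lower (background 2.74%), with a median log2 fold change of 1.71, and of the homeostatic genes 12 were higher. Cx3cr1, Tmem119, Itgam, Trem2 and Fcrls had no counts in DEP14. These list members, too, passed the detection filter only through the REPOP21 mice. Against REPOP14 no gene was a DEG among 24361 tested (edgeR, 824 or 3.38% higher and 1077 or 4.42% lower at an unadjusted p under 0.05), and 1 was called lower without REPOP14 replicate 3. There, Cd74 differed by 1.60 on the log2 scale (edgeR FDR 0.623), and Cybb, at 0.657 CPM in REPOP14, differed by 0.75 (FDR 0.623). CD, REPOP14 and DEP14 are each compared with the same 4 REPOP21 mice.

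Outside the myeloid lists, the genes of smallest p that were higher in REPOP21, besides Cybb, were Cwf19l2, a splicing-related gene (0.43 ± 0.08, FDR 0.032), BC002059, Rsrc2 and Ssb, which encodes the RNA-binding La protein (0.44 ± 0.09, FDR 0.0395). These 4 genes overlapped between the groups, and the re mice of both groups were lower in them than the RE mice of the same group. Gfap, the filament of astrocytes and reactive Müller glia, was at 9.87 to 11.999 CPM in CD and 13.9 to 25.6 CPM in REPOP21, without overlap (0.65 ± 0.16, FDR 0.0597). The higher level was not particular to REPOP21, since Gfap was at 19.9 to 23.3 CPM in DEP14 and 17.1 to 19.4 CPM in REPOP14. The metallothionein Mt1 was lower in REPOP21 than in CD (-0.66 ± 0.16, FDR 0.0538). Of 25 photoreceptor genes 8 were lower (32%, background 9.45%) and 2 higher (8%, background 7.68%) at an unadjusted p under 0.05, with a median of -0.09, among them Nrl (-0.28 ± 0.06, FDR 0.0456). Of 12 tested lens genes, 6 were lower (50%, background 9.45%) and 1 was higher (8.33%, background 7.68%) at an unadjusted p under 0.05. Cryba1 and Cryaa were among the lower ones, and their highest values, 2.58 and 5.87 CPM, came from CD replicate 4. No cell-cycle gene passed an unadjusted p of 0.05 in either direction among 22 tested (edgeR), and of 25 interferon-stimulated genes 2 were higher at that level (8%, near the background of 7.68%), Oasl2 at 0.27 ± 0.11 (FDR 0.218) and Ifit3 at 0.41 ± 0.19 (FDR 0.281).

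Among 16461 genes with an edgeR average log2 CPM above 0 and a GC value, the 1982 that were lower at an unadjusted p under 0.05 had a median transcript GC content of 55.2%, the 1601 that were higher had 44.9%, and all had 49.6%. Across genes the log2 fold change and the GC content had Pearson's r = -0.31, a description over genes that share the same libraries. In the myeloid lists 13 lower genes above that level had a median of 51.8% and 6 higher ones of 47.0%. The part of this difference in the myeloid results was not tested.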

How the data were processed

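Groups came from the sample descriptions, and the columns of the tables were matched to the titles with upper and lower case kept. The deposited counts are raw: the authors aligned reads to mm10 with HISAT2 and tallied them by gene with HTSeq, and the deposited FPKM values were estimated by the authors with StringTie. Versions, strand and multi-mapping settings are not given in the sources used here. Genes were named and placed with GENCODE M21 (50376 of 50686 identifiers). Two-group fits used edgeR 4.0.16 in R 4.3.3 with TMM, the title suffix and the group, on genes with at least 1 count in a share of 0.5 of the mice of a group. DEGs needed an FDR below 0.01 and a change of more than 1 on the log2 scale, and the SE is the fold change over the square root of F. CPM used TMM over all 65 mice. FPKM values were fitted with limma 3.58.1 after adding 0.1. Nuclear copies were found with blastn 2.17.0. The fits were tested on simulated data. The members and lists were chosen with earlier results of these data known, and genes were named by a rule: all DEGs, the genes the study names, members of the myeloid lists with an unadjusted p under 0.05 or no overlap, the 5 genes of smallest p in each direction, up to 3 of each other list, and genes that an alternative fit adding 10 or fewer called. Gm15921, Ctss, C1qb, C1qc and the untested members were named after their values were seen. Some genes that the rule takes are not reported here.

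Same-numbered mice of REPOP21 and CD deviated together from their group means (r = 0.20 to 0.69 over 12346 genes for 4 pairs), but both share the suffix, and with the suffix removed r was -0.56 to 0.06. Whether same-numbered mice shared a litter or day is not stated, and the DEG count and the Cybb result against CD are also given with the replicate number as a block. Libraries of the 9 mice differed by more than sampling noise in every pair. Totals of 5106429 to 8530865 counts limit the precision for genes of few counts, and intervals and floors cover counting error only.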

Additional observations from a re-analysis of the deposited data

Results flagged for a closer look

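In 96 groups of 4 or 5 values checked for a sample far from the others, 8 held one, and chance gives about 1 in 20 for independent values of like libraries. Within REPOP21, replicate 1, the shallow library with the re title, stood apart in its total of 5106429 counts and in Gm28437 at 5.17 CPM, Gm29216 at 3.26 CPM, Gm13340 at 10.7 CPM and Gm42418 at 44.8 CPM. It is the only re mouse of REPOP21. Gm28437, Gm29216 and Gm13340 were also lower in the re than in the RE mice of CD, so that rate does not cover their flags. Gm42418, a predicted gene, was below 1 CPM in the other 3 REPOP21 mice. Within CD, replicate 2 stood apart in Gpr34 at 1.78 CPM and in Gm1821 at 28.3 CPM, and replicate 1 in Siglec1 at 0.129 CPM, which is 1 count where the other CD mice had 0.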

How the results depend on the processing

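The 8 DEGs lower than CD became 0 without the title suffix, 4 with DESeq2, 23 with the likelihood ratio test, 13 with the older quasi-likelihood fit, 1 with all 16 groups in 1 fit, 1 in the RE mice, 0 without mitochondrial sequences (chosen after seeing the data) and 109 at an FDR under 0.05 with no fold threshold, and 0 to 18 with single mice left out. The 0 higher became 5 with the likelihood ratio test, 1 with all 16 groups, 45 at an FDR under 0.05 with no fold threshold, and 0 to 1 with single mice left out. With the replicate block, that is, with mice paired by number, 5 genes were lower than CD, 2 were lower than in REPOP14 (0 without it) and 2 were higher than in DEP14 (4 without it). With single mice left out, 0 to 1 were lower than in REPOP14, 0 to 1 were lower and 1 to 2 higher than in DEP14. Same-numbered mice of REPOP14 and of DEP14 did not all deviate together with REPOP21, and those numbers are not taken as pairs. The 16 lower myeloid genes became 9 with DESeq2, 9 with filterByExpr and 8 to 20 with single mice left out, and the 13 higher became 6 with filterByExpr and 8 to 15. On log2(CPM + 0.1) the difference in list mean was -0.33 for homeostatic, -0.17 for pan-myeloid, 0.39 for oxidase, 0.17 for activated, 0.27 for border and 0.50 for MHC class II genes, and in the re mice alone it was 0.13 for complement, 0.38 for MHC class II and 0.0676 for CSF1R signalling genes. The cause of these changes was not tested.

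Signs turned for these log2 differences. On log2(FPKM + 0.1) they were Gm28437 0.0798, Gm10222 0.09884, mt-Ts1 0.0223, Gm28439 0.03563, Gm29216 0.08385, Gm10925 0.04016, Trem2 -0.2119, Adgrg1 0.08508, Fcer1g 0.03741, Apoe -0.0466, H2-K1 0.055, Cx3cl1 0.3385, Cnga1 -0.1083, Thy1 0.07825, Hbb-bt 0.9653, Top2a 0.02324, Btg2 0.01607, Sgk1 0.002464, mt-Co3 0.07278, mt-Atp6 0.03493 and Gm28661 0.06225. On log2(FPKM + 1) they were Gm28437 0.07978, Gm10222 0.09881, mt-Ts1 0.02235, Gm28439 0.03561, Gm29216 0.08384, Gm10925 0.04015, Trem2 -0.06215, Adgrg1 0.07852, Fcer1g 0.02097, Apoe -0.04642, H2-K1 0.04996, Cx3cl1 0.3243, Cnga1 -0.1077, Thy1 0.0776, Hbb-bt 0.2788, Top2a 0.002402, Btg2 0.01548, Sgk1 0.002437, mt-Co3 0.07276, mt-Atp6 0.03493 and Gm28661 0.06224. In the RE mice the difference was 0.07515 for H2-K1, and without the suffix Ctss 0.005003. With single mice left out they ran from -0.4965 to 0.5178 for Trem2, -0.3087 to 0.07349 for H2-K1, -1.139 to 0.01099 for Hba-a2, -0.1974 to 0.0298 for Ctss and -0.4257 to 0.1326 for C1qc. At the depth of these libraries a gene of a few counts per mouse has a wide counting error, which limits Cybb, Siglec1, Ms4a7, H2-Aa and H2-Eb1.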
